A study of Mus musculus with 45 samples.

Results

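The ligands and receptors of the vascular endothelial growth factor (VEGF) and angiopoietin systems were followed in the hearts of 45 male C57BL/6 mice that differed in diet and in exposure to cigarette smoke. The 10 genes were the ligands Vegfa, Vegfb and Vegfc, the VEGF receptors Kdr, Flt1 and Flt4, the angiopoietins Angpt1 and Angpt2, and the receptors Tek and Tie1. They were found by their symbols: 14 of the 22690 probe sets of the array are annotated to 1 of these genes and to no other gene. Vegfa and Flt4 are read by 2 probe sets each, Flt1 by 3 and the others by 1. The probe set with the highest mean stands for each gene, and all 10 genes passed the filter that left 9295 of 12393 genes for testing. Obesity was brought on by diet in the DIO mice, whose feed held 60 kcal% fat since the age of 6 weeks and thus for 9 weeks ahead of the exposures. The RW mice, of regular weight, were given standard feed of about 5 kcal% fat. The groups were DIO mice in sidestream smoke (DIO-SS, 8 arrays), in mainstream smoke (DIO-MS, 6) and in filtered air (DIO-SC, 8, the sham control), and RW mice in sidestream smoke (RW-SS, 7), in mainstream smoke (RW-MS, 8) and in filtered air (RW-SC, 8). Mainstream smoke is drawn through the cigarette and sidestream smoke comes off its burning tip. The mice were 15 weeks old at the start and were exposed through the nose for 5 h on each of 8 days spread over 2 weeks. The necropsy followed 1 day after the last exposure. The titles and the treatment text name cigarette smoke, which was followed here, while the text on animal growth speaks of an LPS study.

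VEGF ligands are secreted proteins that bind receptor tyrosine kinases on endothelial cells, the cells that line blood and lymph vessels. Kdr (VEGFR2) carries most of the growth signal of Vegfa, Flt1 (VEGFR1) binds Vegfa and Vegfb and can act as a decoy, and Flt4 (VEGFR3) is the main receptor of Vegfc in lymphatic vessels. Angpt1, made by cells around the vessels, activates the endothelial receptor Tek (Tie2) and steadies vessels, Angpt2 can oppose it, and Tie1 modulates Tek. In the heart, myocytes are a main source of Vegfa and Vegfb, and the capillaries between them carry the receptors.

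The values are log2 expression values, so a difference of 1 is a change of 2-fold, and a level is compared only between samples for the same probe set. The array medians lay between 6.20 and 6.24. The 10 cardiomyocyte markers had means between 11.87 (Ryr2) and 14.48 (Myl2), and all of the 26 endothelial markers on the array passed the filter. The labels of all groups give heart as the tissue. Each difference is that of 2 group means and is given ± its standard error (SE) from limma, run on all 45 arrays, with p-values adjusted by Benjamini-Hochberg over 9295 genes and a threshold of 0.05. The arrays are labelled as biological replicates and their number limits the precision. Array RW-MS 7 had the lowest mean correlation with its group (0.978), and on RW-SS 7 the 3' probe set of Gapdh exceeded the 5' one by 0.94, against at most 0.40 on every other array. Arrays RW-MS 2, 6 and 8 were low in atrial transcripts, and the mean of the atrial list ran from -4.29 to 0.58 around the mean of all arrays in RW-MS. Leaving out these 3 arrays changed the call of none of the 10 genes. In whole-heart RNA, fewer cells of a type and less RNA per cell cannot be told apart.

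Sidestream smoke moved several of these genes in each diet, and for 4 of them the effect differed between the diets, for Vegfb and Tek only without a further quantile normalization. In DIO mice Vegfc, Kdr, Angpt2 and Tek rose and Vegfb and Angpt1 fell. Flt1 also passed, upward on its brightest probe set, while another of its probe sets passed downward, so its direction is not settled. That made 7 of 10 genes past the threshold, against 31.8% of all genes tested. In that comparison 23.0% of all genes were higher and 8.82% lower. In RW mice Vegfb, Kdr, Flt4 and Angpt1 fell and none rose, 4 of 10, against 24.6% of all genes (11.7% higher and 13.0% lower). The effect of sidestream smoke in DIO mice minus that in RW mice, the sidestream interaction, passed for Vegfb, Vegfc, Kdr and Tek, 4 of 10 and all above 0, against 28.4% of all genes. The same interaction was above 0 for 18.3% of all genes and below 0 for 10.1%. For Vegfa it was below 0 and narrowly missed the threshold (-0.24, adjusted p = 0.0502). Mainstream smoke moved 1 gene in each diet, Flt1 in DIO mice (on its brightest probe set, against 4.55% of all genes) and Flt4 in RW mice (6.86%). The calls of Flt1 and Flt4 held for 1 of their probe sets only. The smoke comparisons within a diet share its air controls, which also enter the comparison of the diets in air and the interactions.

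**Figure D1:**
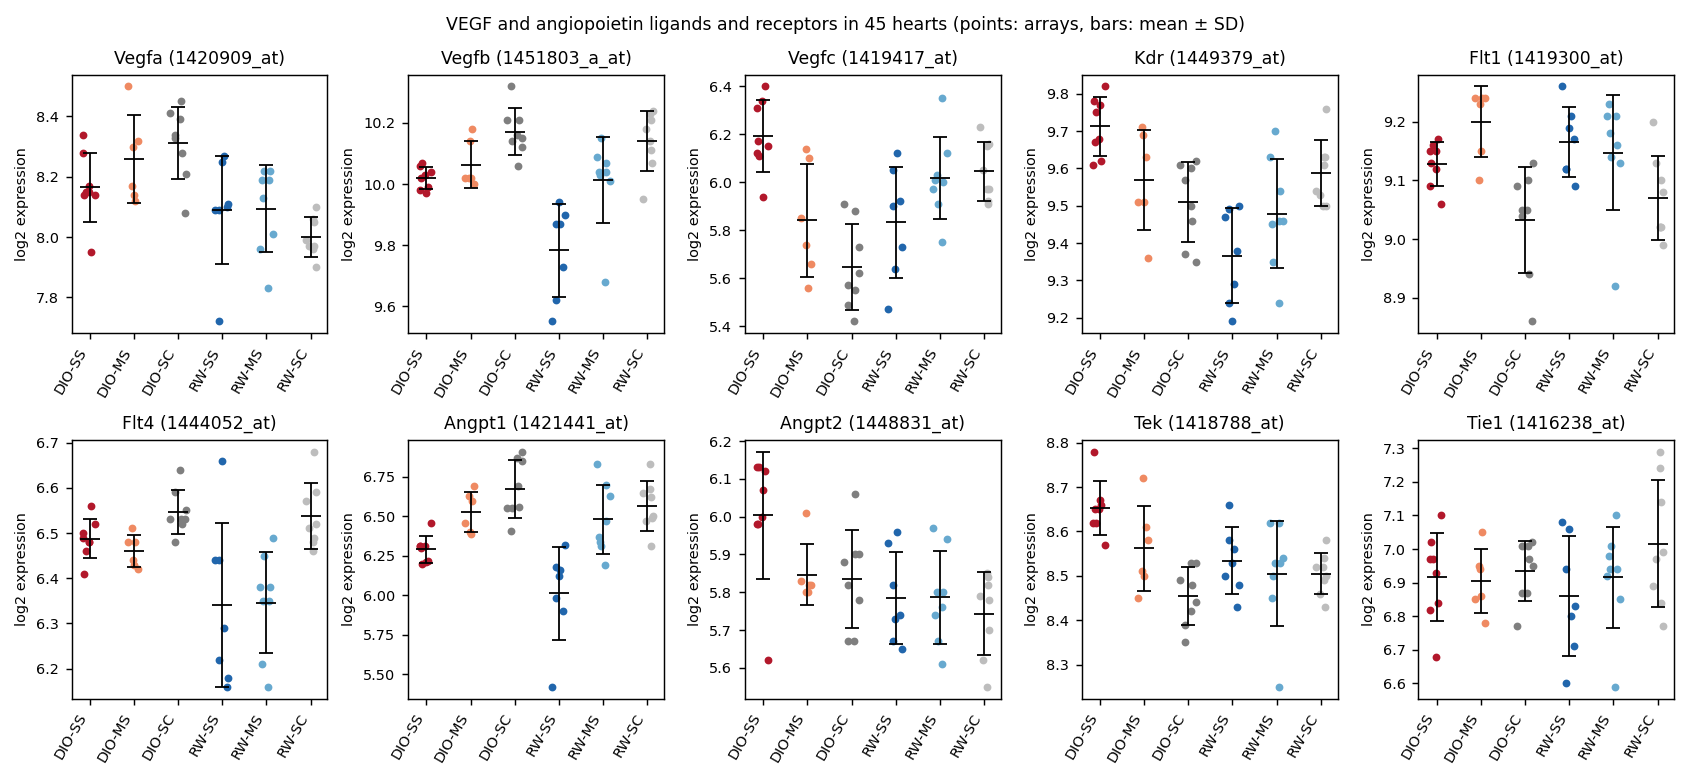
Log2 expression (y axis, a separate scale for each gene) of the 10 genes on every array of the 6 groups, with the mean and SD as bars. Vegfc of the 8 DIO-SS arrays (5.94 to 6.40) lay above all DIO-SC arrays (5.42 to 5.91), and Vegfb of the 7 RW-SS arrays (9.55 to 9.94) lay below all RW-SC arrays (9.95 to 10.24).

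The share of called genes that were higher depended on scaling. After a further quantile normalization it was 58.8% in place of 72.3% in DIO-SS against DIO-SC, 60.8% in place of 47.3% in RW-SS against RW-SC, and 39.3% in place of 64.4% in the sidestream interaction. It was 51.9% in place of 41.7% in RW-MS against RW-SC, 46.2% in place of 34.2% in DIO-SC against RW-SC, 55.7% in place of 37.7% in RW-SS against RW-MS, and 38.0% in place of 62.4% in DIO-SS against DIO-MS. Of the calls of the 10 genes for sidestream smoke, that normalization ended the rise of Flt1 in DIO-SS (0.05, adjusted p = 0.363) and the interactions of Vegfb (0.12, adjusted p = 0.276) and Tek (0.08, adjusted p = 0.317). The interactions of Vegfc and Kdr kept their calls, and that of Vegfa newly passed, below 0 (-0.34, adjusted p = 0.0163). The 2 differences from air that newly passed were Vegfa in DIO-SS (-0.20, adjusted p = 0.03) and Flt1 in RW-SS (0.14, adjusted p = 0.0106).

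The windows around the start sites of the 4 genes whose response to sidestream smoke differed between the diets are shown because these are the genes that passed that test. They come from RefSeq (GRCm38.p6), run 5′ to 3′ on the strand of the gene from 250 bases before to 50 bases after a start site, and capitals mark matches on either strand to GGGCGG, the GC box read by Sp1, and to CCGGAA and CAGGAA, which hold the GGAA core of ETS factors.
Vegfb, chr19:6987602-6987901, minus strand: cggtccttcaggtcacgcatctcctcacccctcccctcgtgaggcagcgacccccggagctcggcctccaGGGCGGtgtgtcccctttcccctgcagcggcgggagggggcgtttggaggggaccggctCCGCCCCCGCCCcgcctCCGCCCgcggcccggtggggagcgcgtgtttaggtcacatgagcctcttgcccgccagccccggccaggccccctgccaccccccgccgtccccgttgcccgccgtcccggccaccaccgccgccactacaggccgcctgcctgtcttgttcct
Vegfc, chr8:54077282-54077581, plus strand: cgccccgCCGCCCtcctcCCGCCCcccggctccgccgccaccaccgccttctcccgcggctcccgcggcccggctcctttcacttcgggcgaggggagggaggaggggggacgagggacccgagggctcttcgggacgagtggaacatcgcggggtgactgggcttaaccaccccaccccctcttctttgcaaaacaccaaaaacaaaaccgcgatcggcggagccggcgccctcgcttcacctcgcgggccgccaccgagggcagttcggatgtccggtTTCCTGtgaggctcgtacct
Kdr, chr5:75978406-75978705, minus strand: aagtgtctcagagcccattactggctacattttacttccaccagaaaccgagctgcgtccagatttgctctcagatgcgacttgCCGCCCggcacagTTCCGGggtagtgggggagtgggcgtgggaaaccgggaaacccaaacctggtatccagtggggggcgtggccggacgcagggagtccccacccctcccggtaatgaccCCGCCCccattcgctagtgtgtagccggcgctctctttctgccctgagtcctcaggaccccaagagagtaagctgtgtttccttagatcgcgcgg
Tek, chr4:94739039-94739338, plus strand: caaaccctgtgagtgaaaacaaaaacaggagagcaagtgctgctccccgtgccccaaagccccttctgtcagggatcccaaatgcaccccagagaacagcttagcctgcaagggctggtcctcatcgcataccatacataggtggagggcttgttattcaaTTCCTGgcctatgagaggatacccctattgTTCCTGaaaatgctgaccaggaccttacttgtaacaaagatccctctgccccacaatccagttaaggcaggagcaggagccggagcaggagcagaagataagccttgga
GGGCGG stood in 7 of 9 windows of the 8 genes that have one, and in 35.7% of all 32851 windows of the same length. Vegfb held 4 matches, Vegfc and Kdr 2 each and Tek 0. CAGGAA stood in 4 of 9 windows, 2 times in that of Tek, and in 30.6% of all windows. CCGGAA stood in 1 of 9, that of Kdr, and in 14.9% of all. The hypoxia-element core ACGTG stood in 1 of 9, a second window of Vegfa, and in 19.6% of all, and TATAAA in 1 of 9, that of Flt1, and in 13.6% of all. The windows were 75.3% (Vegfb), 70.3% (Vegfc), 60.7% (Kdr) and 52.0% (Tek) G and C, against a median of 52.7% over all windows. A match describes letters only.

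Vegfa (chr17:46016993-46032377 in the RefSeq annotation of GRCm38.p6, like the positions given for the other genes), the ligand that drives sprouting of blood vessels, was higher in the hearts of DIO mice in air. Its values were 8.08, 8.33 and 8.45 in DIO-SC (lowest, median and highest) and 7.90, 7.98 and 8.10 in RW-SC. Of the DIO-SC arrays 7 of 8 lay above every RW-SC array, and DIO-SC 2 lay within their range. The difference was 0.31 ± 0.06 (24.0%, limma adjusted p = 0.000531, n = 8 and 8). In air 2 of 10 genes passed, Vegfa higher and Vegfc lower, against 20.2% of all genes.

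With sidestream smoke Vegfa was 7.95, 8.15 and 8.34 in DIO-SS, and the difference from DIO-SC was -0.14 ± 0.06 (adjusted p = 0.0794). It passed in 4 of 13 other settings (adjusted p between 0.0127 and 0.0496) and without DIO-SC 2 (adjusted p = 0.0327). In RW-SS it was 7.72, 8.10 and 8.27, and the difference from RW-SC was 0.09 ± 0.07 (adjusted p = 0.323). The groups overlapped in both diets. The sidestream interaction of -0.24 ± 0.09 missed the threshold (adjusted p = 0.0502) and passed in 7 of 13 other settings (adjusted p between 0.00577 and 0.0486). With mainstream smoke the differences were -0.05 in DIO mice and 0.09 in RW mice, and neither passed. The second probe set of Vegfa (1451959_a_at) gave 0.18 for DIO-SC against RW-SC (adjusted p = 0.0614 over all probe sets, of which 13.7% passed) and -0.19 for DIO-SS against DIO-SC (adjusted p = 0.0254, where 23.9% passed). The 6 group means ran from 8.31 in DIO-SC down to 8.00 in RW-SC, and no neighbours in that order differed by more than the larger of their SDs.

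Vegfb (chr19:6982472-6987651), a ligand of Flt1 known for its abundance in heart muscle, fell with sidestream smoke in both diets. It was 9.55, 9.87 and 9.94 in RW-SS and 9.95, 10.16 and 10.24 in RW-SC. Every RW-SS array lay below every RW-SC array, and Vegfb was the 1 gene of the 10 whose groups did not overlap there, against 5.20% of all genes. It fell by 22.0% (-0.36 ± 0.05, adjusted p = 3.69e-06, n = 7 and 8). In DIO-SS the values were 9.97, 10.02 and 10.07, and in DIO-SC 10.06, 10.15 and 10.32. There 6 of 8 DIO-SS arrays lay below every DIO-SC array, and the difference of -0.15 ± 0.05 passed (adjusted p = 0.0226) but ended without DIO-SC 3 (-0.13, adjusted p = 0.0577).

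The fall was larger in RW mice by the sidestream interaction (0.21 ± 0.07, adjusted p = 0.0354). That call ended after the further quantile normalization, and without any 1 of 7 arrays (RW-SC 2, 4 or 5, DIO-SC 5, or RW-SS 1, 6 or 7; 0.17 to 0.20, adjusted p between 0.0508 and 0.0713). Between diets in sidestream smoke, DIO-SS exceeded RW-SS by 0.24 ± 0.05 (adjusted p = 0.000923), and the groups did not overlap. Between smokes in RW mice, RW-SS was below RW-MS (-0.23 ± 0.05, adjusted p = 0.00713), with RW-MS at 9.68, 10.04 and 10.15. That call ended with the atrial mean in the model (-0.18, adjusted p = 0.0608) and with only these 2 groups in it (-0.23, adjusted p = 0.173). It held without the 3 RW-MS arrays low in atrial transcripts, and the part of atrial tissue was not tested. The mainstream differences from air, -0.11 in DIO and -0.13 in RW mice, did not pass. RW-SS was the lowest group, and its gap to RW-MS was the 1 gap between neighbours that exceeded the larger SD.

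Vegfc (chr8:54077532-54186454), the ligand known for the growth of lymphatic vessels, had the largest change with sidestream smoke in DIO mice among the 10 genes. It was 5.94, 6.16 and 6.40 in DIO-SS and 5.42, 5.59 and 5.91 in DIO-SC. All 8 DIO-SS arrays lay above every DIO-SC array. Vegfc and Tek were the 2 genes whose groups did not overlap in this comparison, against 7.17% of all genes. The rise was 46.0% (0.55 ± 0.09, adjusted p = 1.39e-05, n = 8 and 8). In RW-SS it was 5.47, 5.90 and 6.12 against 5.91, 6.01 and 6.23 in RW-SC, and the difference of -0.21 ± 0.09 did not pass (adjusted p = 0.0816). It passed without RW-SS 1 or RW-SS 4 (adjusted p = 0.0489 and 0.0398).

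The sidestream interaction of Vegfc was 0.76 ± 0.13 (adjusted p = 0.000102) and stayed between 0.70 and 0.81 without any 1 array. In air the diets stood the other way: the percent difference of Vegfc in DIO-SC from RW-SC was -24.2% (-0.40 ± 0.09, adjusted p = 0.00105), and the groups did not overlap, for 1 of 10 genes and 4.03% of all genes. In sidestream smoke DIO-SS was above RW-SS by 0.36 ± 0.09 (adjusted p = 0.00246). In mainstream smoke DIO-MS had 5.56, 5.79 and 6.14 and RW-MS 5.75, 6.01 and 6.35, and the difference of -0.18 did not pass (adjusted p = 0.245). With array weights it was -0.29 and passed (adjusted p = 0.0272). DIO-SS exceeded DIO-MS by 0.35 ± 0.10 (adjusted p = 0.0385), and Vegfc was the 1 gene of 10 to pass there, against 2.55% of all genes. That call ended without any 1 of 8 arrays (adjusted p up to 0.129 without DIO-MS 4), after the further quantile normalization (0.37, adjusted p = 0.0573) and with only these 2 groups in the model (adjusted p = 0.0508). The order of group means was DIO-SS, RW-SC, RW-MS, DIO-MS, RW-SS and DIO-SC, with no gap between neighbours above the larger SD.

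**Figure D2:**
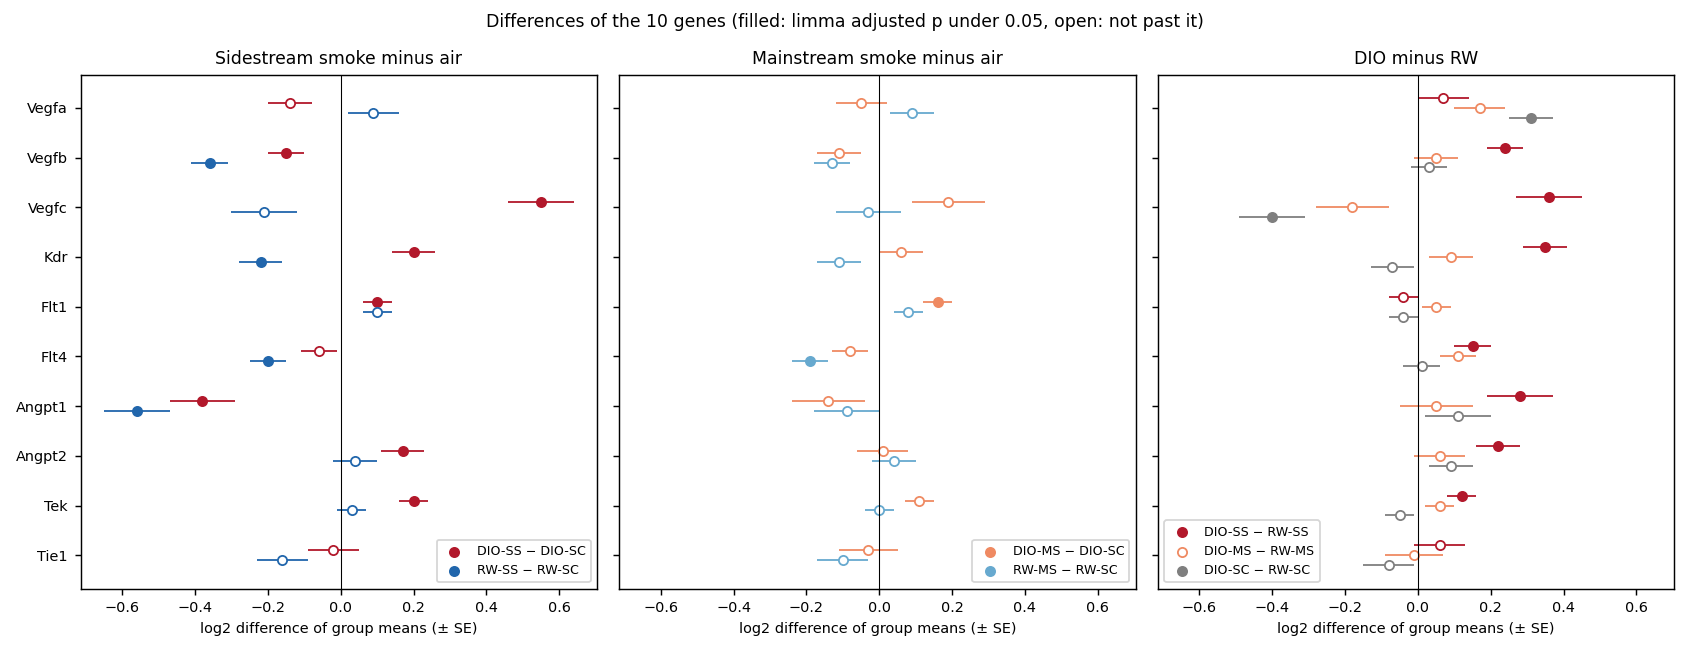
Log2 differences (x axis, ± SE) of the 10 genes for sidestream smoke minus air, mainstream smoke minus air and DIO minus RW mice, with filled points where the limma adjusted p was under 0.05. Vegfc and Kdr lay on opposite sides of 0 in DIO mice (0.55 and 0.20) and in RW mice (-0.21 and -0.22) with sidestream smoke. On the brightest probe sets, which are drawn here, 7 of 10 genes were higher in DIO-SS than in RW-SS.

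Kdr (chr5:75932827-75979072), the receptor that transmits most of the Vegfa signal, rose with sidestream smoke in DIO mice and fell with it in RW mice. It was 9.61, 9.71 and 9.82 in DIO-SS and 9.35, 9.54 and 9.62 in DIO-SC, and 6 of 8 DIO-SS arrays lay above every DIO-SC array. The rise was 14.7% (0.20 ± 0.06, adjusted p = 0.00757). In RW-SS it was 9.19, 9.38 and 9.50, and in RW-SC 9.50, 9.58 and 9.76, so that 6 of 7 RW-SS arrays lay below every RW-SC array. It fell by 14.2% (-0.22 ± 0.06, adjusted p = 0.00508). The sidestream interaction was 0.42 ± 0.08 (adjusted p = 0.000422) and stayed between 0.39 and 0.44 without any 1 array.

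The diets in air did not differ past the threshold in Kdr (-0.07, adjusted p = 0.378). In sidestream smoke DIO-SS exceeded RW-SS by 0.35 ± 0.06 (27.1%, adjusted p = 2.49e-05), and every DIO-SS array lay above every RW-SS array. On the brightest probe sets 7 of 10 genes were higher in that comparison and none lower. Over all genes 32.6% passed (19.7% higher and 12.9% lower). Another probe set of Flt1, 1451756_at, was lower there (-0.19, adjusted p = 0.0149 over all probe sets, of which 27.1% passed). Among the 7, the calls of Flt4, Angpt1 and Tek each ended in some other settings. After the further quantile normalization 44.2% of the called genes of that comparison were higher, in place of 60.5%. Vegfb and Kdr were the 2 genes whose groups did not overlap, against 7.21% of all genes. With mainstream smoke the differences from air were 0.06 in DIO and -0.11 in RW mice, and neither passed. The gap from DIO-SS to RW-SC, its nearest group, exceeded the larger SD, and no other gap between neighbours did.

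Flt1 (chr5:147561604-147726438), which binds Vegfa and Vegfb, gave opposite answers by probe set. On 1419300_at it was 9.10, 9.23 and 9.24 in DIO-MS and 8.86, 9.05 and 9.13 in DIO-SC, and 5 of 6 DIO-MS arrays lay above every DIO-SC array (0.16 ± 0.04, adjusted p = 0.0129). With only these 2 groups in the model that call ended (adjusted p = 0.0531). In DIO-SS it was 9.06, 9.14 and 9.17, a rise of 0.10 ± 0.04 (adjusted p = 0.0475) that ended without any 1 of 11 arrays. On 1451756_at the values were 8.87, 8.98 and 9.01 in DIO-MS, 8.82, 8.96 and 9.08 in DIO-SS, and 9.07, 9.15 and 9.42 in DIO-SC. That probe set fell in DIO-SS (-0.24 ± 0.06, adjusted p = 0.00266 over all probe sets, of which 23.9% passed), and its difference in DIO-MS was -0.22 (adjusted p = 0.0569, where 1.91% of probe sets passed). It was also lower in DIO-SS than in RW-SS (-0.19, adjusted p = 0.0149, where 27.1% of probe sets passed), where 1419300_at was not (-0.04, adjusted p = 0.498).

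The mean of the 3 Flt1 probe sets was below air in both, by -0.06 in DIO-MS (adjusted p = 0.593) and -0.10 in DIO-SS (adjusted p = 0.09), the opposite sign of 1419300_at. The other, dim probe set (1454037_a_at) passed in none of the 9 comparisons between groups. Flt1 is known to give both a membrane receptor and a shorter soluble form. The annotation used here does not say which form each probe set reads, so the direction for the gene is not settled by these arrays.

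**Figure D3:**
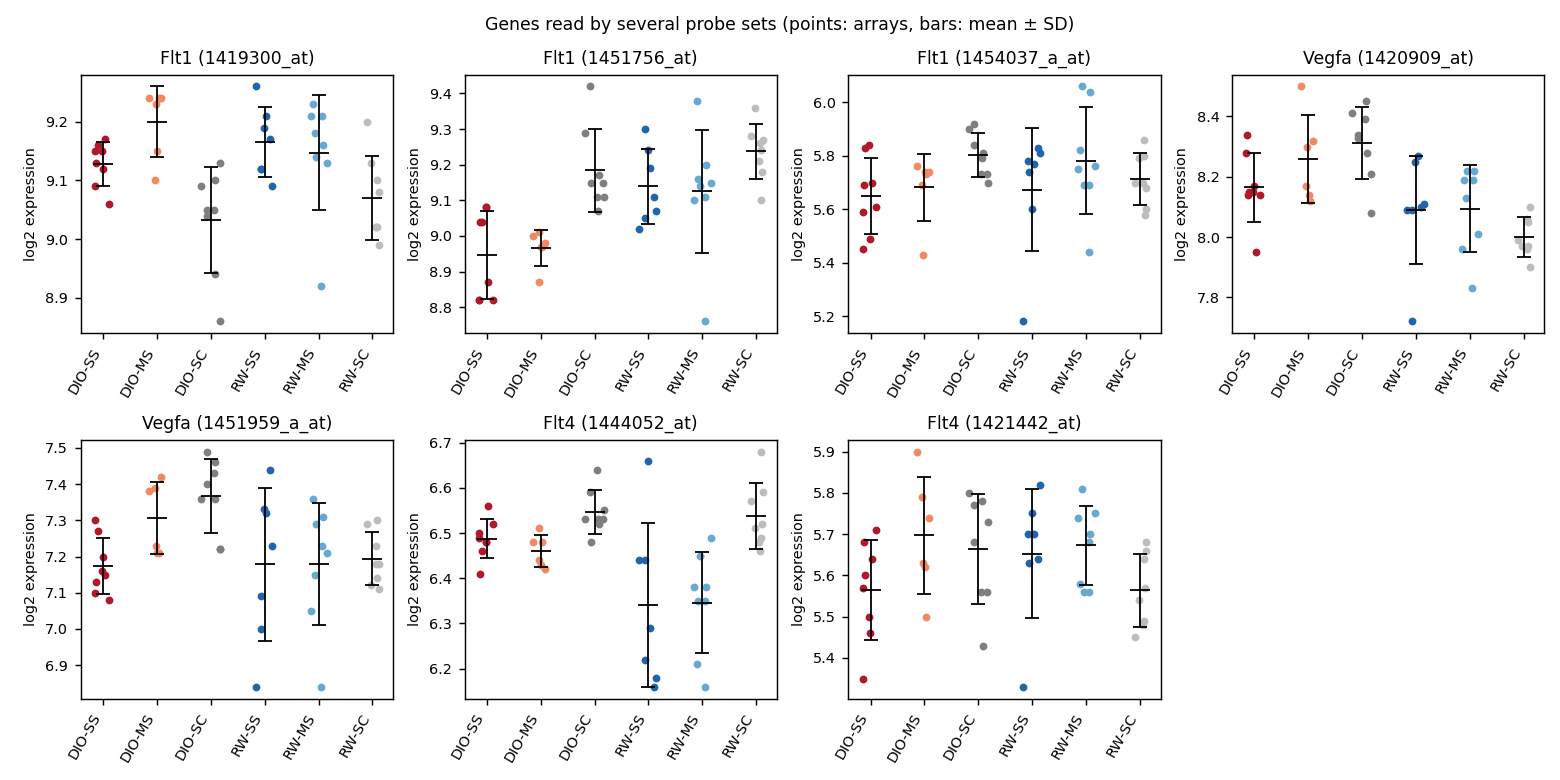
Log2 expression (y axis, a separate scale for each panel) of every probe set of Flt1, Vegfa and Flt4 on each array, with the mean and SD of the 6 groups as bars. In DIO-SS and DIO-MS the Flt1 probe set 1419300_at lay above DIO-SC (means 9.13 and 9.20 against 9.03) and 1451756_at below it (8.95 and 8.97 against 9.18).

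Flt4 (chr11:49609679-49652739), the receptor of Vegfc, fell with both smokes in RW mice on 1444052_at. It was 6.16, 6.37 and 6.49 in RW-MS, 6.16, 6.29 and 6.66 in RW-SS and 6.46, 6.52 and 6.68 in RW-SC. In RW-MS 7 of 8 arrays and in RW-SS 6 of 7 lay below every RW-SC array, and RW-SS 5 stood near the top of the RW-SC range. The differences were -0.19 ± 0.05 in RW-MS (adjusted p = 0.00937) and -0.20 ± 0.05 in RW-SS (adjusted p = 0.00308). Neither passed in DIO mice (-0.08 and -0.06), and neither interaction passed (adjusted p = 0.594 and 0.124), though without RW-SS 5 the sidestream one did (0.19, adjusted p = 0.0156). The other probe set, 1421442_at, did not pass and differed by 0.11 and 0.09 in these 2 comparisons, and the mean of both probe sets ended the calls (-0.04, adjusted p = 0.629, and -0.05, adjusted p = 0.365). DIO-SS was above RW-SS by 0.15 ± 0.05 (adjusted p = 0.0213), which also ended with the mean of both probe sets (0.03), with only these 2 groups in the model (adjusted p = 0.0866) and without RW-SS 2, 3 or 6.

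Angpt1 (chr15:42424667-42676977), the ligand that activates Tek, fell with sidestream smoke in both diets and had the largest fall of the 10 genes. It was 5.42, 6.12 and 6.32 in RW-SS and 6.31, 6.56 and 6.83 in RW-SC, and 6 of 7 RW-SS arrays lay below every RW-SC array. It fell by 32.1% (-0.56 ± 0.09, adjusted p = 2.61e-05). In DIO-SS it was 6.20, 6.30 and 6.46, and in DIO-SC 6.41, 6.63 and 6.91, so that 7 of 8 DIO-SS arrays lay below every DIO-SC array. There it fell by 23.4% (-0.38 ± 0.09, adjusted p = 0.00146), and the interaction of 0.17 ± 0.13 did not pass (adjusted p = 0.327). Both falls passed without any 1 array, at -0.46 to -0.61 in RW-SS and -0.35 to -0.42 in DIO-SS.

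With mainstream smoke the differences of Angpt1, -0.14 in DIO mice and -0.09 in RW mice, did not pass. In RW mice the smokes differed: RW-SS was below RW-MS (6.19, 6.42 and 6.83), with a difference of -27.7% (-0.47 ± 0.09, adjusted p = 0.00251), and Vegfb and Angpt1 were the 2 of 10 genes that passed there, against 5.82% of all genes. With only these 2 groups in the model neither gene passed, and 4 genes of all did, in place of 541. DIO-SS was above RW-SS by 0.28 ± 0.09 (adjusted p = 0.0215), and without RW-SS 7, the lowest array at 5.42, by 0.18 (adjusted p = 0.0982). RW-SS was the lowest group, and no gap between neighbours in the order of means exceeded the larger SD.

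Angpt2 (chr8:18690263-18741562), which can oppose Angpt1 at Tek, was 5.62, 6.03 and 6.13 in DIO-SS and 5.67, 5.85 and 6.06 in DIO-SC. All DIO-SS arrays but DIO-SS 3 stood at 5.98 or above, and 4 of 8 lay above every DIO-SC array. The rise was 12.4% (0.17 ± 0.06, adjusted p = 0.0349), and it ended without any 1 of 7 arrays (adjusted p up to 0.0832) and with only these 2 groups in the model (adjusted p = 0.0665). Without DIO-SS 3 it was 0.22 (adjusted p = 0.00266). DIO-SS was also above RW-SS (5.65, 5.74 and 5.96) by 0.22 ± 0.06 (adjusted p = 0.00889). In RW-SS against RW-SC the difference was 0.04 (adjusted p = 0.673), and the interaction of 0.13 ± 0.09 did not pass (adjusted p = 0.293). With mainstream smoke the differences were 0.01 and 0.04 in DIO and RW mice.

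Tek (chr4:94739086-94874976), the receptor of both angiopoietins, rose with sidestream smoke in DIO mice. It was 8.57, 8.65 and 8.78 in DIO-SS and 8.35, 8.46 and 8.53 in DIO-SC, and all 8 DIO-SS arrays lay above every DIO-SC array. The rise was 15.0% (0.20 ± 0.04, adjusted p = 0.000229). In RW-SS it was 8.43, 8.53 and 8.66 against 8.43, 8.51 and 8.58 in RW-SC, groups that overlapped throughout (0.03, adjusted p = 0.676). The interaction was 0.17 ± 0.06 (adjusted p = 0.0224), and it passed without any 1 array (0.16 to 0.20) but not after the further quantile normalization (0.08, adjusted p = 0.317). DIO-SS exceeded RW-SS by 0.12 ± 0.04 (adjusted p = 0.0225), which ended without DIO-SS 5 or RW-SS 6 and after the same normalization (0.06, adjusted p = 0.236). The mainstream difference in DIO mice was 0.11 (adjusted p = 0.155).

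Tie1 (chr4:118471191-118489849), the partner of Tek, passed in none of the 9 comparisons between groups and in neither interaction. Its widest difference was between RW-SS, at 6.60, 6.83 and 7.08, and RW-SC, at 6.77, 6.98 and 7.29, which overlapped (-0.16 ± 0.07, adjusted p = 0.114). Without RW-MS 7 and RW-SS 7 it was -0.19 and passed (adjusted p = 0.0361). The 6 group means lay between 7.02 in RW-SC and 6.86 in RW-SS. From high to low, the group means of Tek ran DIO-SS, DIO-MS, RW-SS, RW-SC, RW-MS and DIO-SC, those of Flt1 DIO-MS, RW-SS, RW-MS, DIO-SS, RW-SC and DIO-SC, and those of Flt4 DIO-SC, RW-SC, DIO-SS, DIO-MS, RW-MS and RW-SS. In these 3 orders, and in those of Angpt2 and Tie1, no neighbours differed by more than the larger of their SDs.

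For mainstream smoke, 0 of 10 genes passed in the interaction, against 0.226% of all genes (limma; the smallest unadjusted p was 0.056, of Kdr), and 0 of 10 in DIO-MS against RW-MS, against 10.6% of all genes. In DIO-MS against RW-MS limma gave 2 genes an unadjusted p under 0.05, Vegfa (0.17, adjusted p = 0.122) and Flt4 (0.11, adjusted p = 0.159). Vegfa passed there once the level of the atrial list was a covariate (0.25, adjusted p = 0.0168).

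Of 28 further genes of the pathway (other ligands, co-receptors, the phosphatase Ptprb and signal carriers) 8 passed in DIO-SS, against 31.8% of all genes, and 8 in RW-SS, against 24.6%. In DIO-SS 4 rose and 4 fell (23.0% and 8.82% of all genes), in RW-SS 2 rose and 6 fell (11.7% and 13.0%), and 0 passed in DIO-MS (4.55%). In DIO-SS the rises with the smallest p were Pik3ca (0.23, adjusted p = 0.000389), the catalytic subunit of PI3 kinase, Gab1 (0.27, adjusted p = 0.000431), a docking protein downstream of Kdr, and Foxo1 (0.23, adjusted p = 0.000553), a transcription factor that Tek signalling through Akt restrains. Pik3r1, the regulatory subunit of PI3 kinase, fell (-0.35, adjusted p = 0.00247). In RW-SS the adaptor Nck1 (-0.24, adjusted p = 0.000192), the calcineurin regulator Rcan1 (-0.27, adjusted p = 0.000695) and the kinase Fyn (-0.19, adjusted p = 0.000717) fell. Nck1 was higher in DIO-SS than in RW-SS (0.39, adjusted p = 2.9e-08), and its sidestream interaction passed (0.38, adjusted p = 0.000144). In air 1 of the 28 was higher in DIO-SC than in RW-SC and 3 were lower, where 20.2% of all genes passed. Pik3r1 was higher (0.37, adjusted p = 0.00272). Akt1 (-0.35, adjusted p = 5.65e-07), Pik3ca (-0.19, adjusted p = 0.00404) and the nitric oxide synthase Nos3 (-0.20, adjusted p = 0.0184) were lower. The list's median difference was -0.06 in DIO-SS and -0.04 in RW-SS, beside 0.04 and 0.00 over all genes.

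Among 26 regulators of Vegfa and hypoxia targets, 5 rose and 3 fell in DIO-SS, against 23.0% and 8.82% of all genes, and 6 rose and 4 fell in RW-SS, against 11.7% and 13.0%. Hif1a, the hypoxia-regulated subunit of HIF1, rose in DIO-SS (0.32, adjusted p = 2.44e-06) and in DIO-MS (0.21, adjusted p = 0.00957), and in air it was lower in DIO-SC than in RW-SC (-0.22, adjusted p = 0.00066). These comparisons share the DIO-SC arrays, whose mean of 8.81 was the lowest, with the other groups between 9.01 and 9.12. The glucose transporter Slc2a1, a HIF target, rose with sidestream smoke in DIO (0.40, adjusted p = 2.05e-05) and RW mice (0.34, adjusted p = 0.000259). Tfrc, of the same list, fell with sidestream smoke in DIO (-0.69, adjusted p = 0.00423) and RW mice (-2.05, adjusted p = 2.3e-10). Slc2a1 was lower in DIO-SC than in RW-SC (-0.75, adjusted p = 3.2e-11), where Vegfa was higher. The HIF targets Egln3 (0.43, adjusted p = 0.00118) and P4ha1 (0.48, adjusted p = 5.84e-06) were higher there.

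The other 26 markers of endothelial cells, the cells that carry the receptors, are given beside them. In DIO-SS 8 rose and 3 fell, against 23.0% and 8.82% of all genes, with a median of 0.03 beside 0.04 over all genes. The tight-junction gene Cldn5 (0.43, adjusted p = 1.01e-05), Emcn (0.30, adjusted p = 0.000178) and Pecam1 (0.29, adjusted p = 0.000624) were among the 8. Rgcc went the other way, with means of 9.02 in DIO-SS and 9.36 in DIO-SC. The sidestream interaction was above 0 for 5 of the 26 and below 0 for 1, Rgcc (-0.57, adjusted p = 0.00202), against 18.3% and 10.1% of all genes. The mean of the endothelial list, as a deviation from the mean of all arrays, ran from 0.02 to 0.11 in DIO-SS and from -0.04 to 0.07 in DIO-SC. In RW-SS, where Kdr fell, 1 rose and 2 fell, against 11.7% and 13.0% of all genes, and without RW-MS 7 and RW-SS 7 it was 4 and 5. That mean ran from -0.12 to 0.04 in RW-SS and from -0.07 to 0.02 in RW-SC. In DIO-SS against RW-SS 10 were higher and 1 lower (13 and 1 without RW-MS 7 and RW-SS 7), against 19.7% and 12.9% of all genes, with a median of 0.11 beside 0.02 over all genes. The means of these markers ran from 5.61 (Erg) to 11.47 (Cav1). The part of the endothelial markers in the rises of Kdr and Tek was not tested.

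Of 11 mural markers, of the pericytes and smooth muscle around vessels that are a source of Angpt1, 2 rose in DIO-SS, Kcnj8 (0.27, adjusted p = 0.000312) and Pdgfrb (0.16, adjusted p = 0.00426), and 0 fell. Their mean ran from -0.15 to 0.28 in DIO-SS and from -0.41 to 0.22 in DIO-SC. In RW-SS 1 of 11 fell, Abcc9 (-0.19, adjusted p = 0.0474), and the mean ran from -0.46 to 0.21 in RW-SS and from -0.21 to 0.22 in RW-SC. Of the 4 lymphatic markers (Prox1, Lyve1, Pdpn and Reln) 0 passed in DIO-SS or RW-SS, beside the rise of Vegfc in DIO-SS. Over all genes 23.0% rose and 8.82% fell in DIO-SS, and 11.7% rose and 13.0% fell in RW-SS. The mean of the 4 lymphatic markers ran from -0.16 to 0.14 in DIO-SS and from -0.13 to 0.24 in DIO-SC. In RW-MS against RW-SC 1 of the 4 passed, Lyve1 (-0.38, adjusted p = 0.0285), against 6.86% of all genes. Without the 3 arrays low in atrial transcripts 0 of the 4 passed there.

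Of 10 fibroblast markers 1 rose in DIO-SS, Pdgfra (0.41, adjusted p = 1.31e-05), against 23.0% of all genes. In DIO-SS against RW-SS 7 were higher and 0 lower, against 19.7% and 12.9% of all genes. Their mean ran from -0.03 to 0.47 in DIO-SS and from -0.36 to 0.17 in RW-SS. All 3 red cell markers tested rose in RW-SS, against 11.7% of all genes, Alas2 the most (1.16, adjusted p = 0.000244). Their mean ran from 0.04 to 1.68 in RW-SS and from -0.41 to -0.14 in RW-SC. The 9 leukocyte markers had 1 fall and 0 rises in each of DIO-SS and RW-SS, where 8.82% and 13.0% of all genes fell. The mean of the 6 fat markers ran from -1.98 to 0.76 in DIO-SC and from -1.55 to 2.11 in RW-SC. In that comparison 1 fat marker was lower in DIO-SC, where 20.2% of all genes passed in either direction. Of 10 cardiomyocyte markers 1 fell in DIO-SS, Ttn (-0.22, adjusted p = 5.57e-06), against 8.82% of all genes. In RW-SS 0 of them passed, against 24.6% of all genes. The part of these cell types in the results was not tested. Of the 23 other vessel growth and guidance genes 4 rose and 3 fell in DIO-SS, against 23.0% and 8.82% of all genes, and 0 rose and 5 fell in RW-SS, against 11.7% and 13.0%. Ednrb, an endothelin receptor, fell in both (-0.78, adjusted p = 6.6e-08, and -0.56, adjusted p = 1.74e-05).

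**Figure D4:**
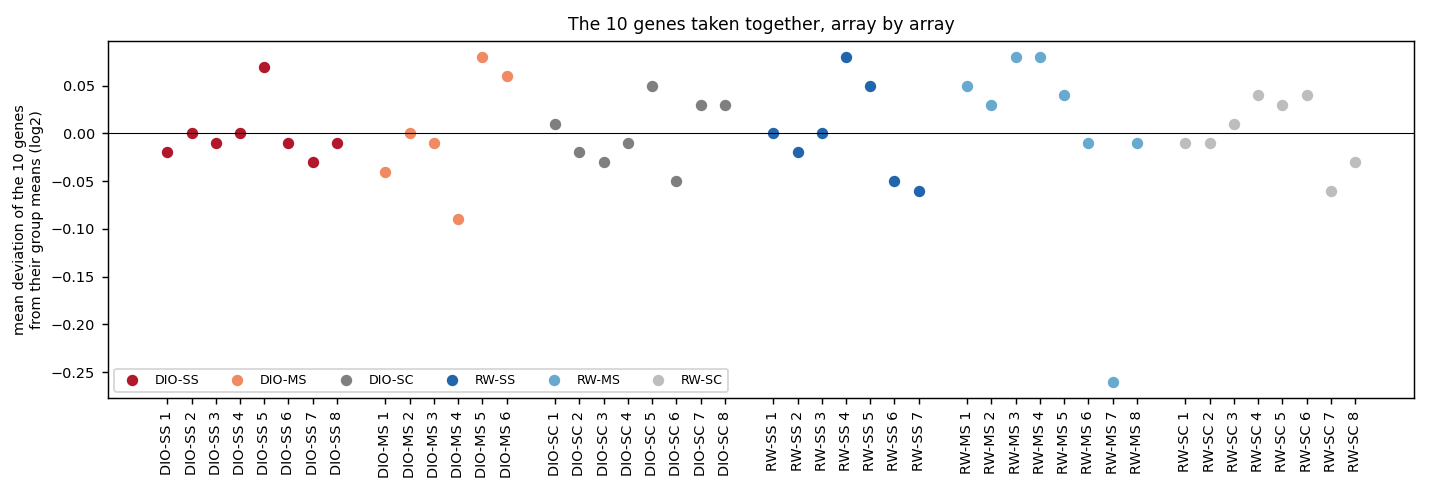
Mean deviation of the 10 genes from their group means (y axis, log2) for each of the 45 arrays. RW-MS 7 stood at -0.26, and the other arrays lay between -0.09 (DIO-MS 4) and 0.08.

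Within groups the 10 genes varied by array. On RW-MS 7 all 10 genes were at the lowest value of their group, with a mean deviation of -0.26, and on DIO-MS 4 all 10 were below the group mean (-0.09). RW-MS 7 was also the lowest RW-MS array in the endothelial list (-0.14) and the highest in the leukocyte list (0.63). Of 45 pairs of the genes, tested on deviations from group means over the 45 arrays by permutation with adjustment over the 45 pairs, 0 passed. The strongest were Vegfc with Tek (Pearson r = 0.48, adjusted p = 0.058, Spearman rho = 0.48, adjusted p = 0.091) and Angpt2 with Tek (r = 0.47, adjusted p = 0.05 and not below the threshold, rho = 0.44, adjusted p = 0.091). Without the 2 arrays farthest from the median of the first gene these were 0.45 and 0.44. Vegfa with Flt1 had r = 0.44 (adjusted p = 0.058, rho = 0.32, adjusted p = 0.35), and 0.31 without RW-SS 2 and RW-MS 7. Vegfb with Angpt1 had r = 0.36 (adjusted p = 0.26, rho = 0.20, adjusted p = 0.71), and 0.06 without RW-MS 7 and RW-SS 7.

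The genes whose deviations were most like those of each member, by Pearson r over the 45 arrays among 9294 genes, all had a higher r than any pair among the 10. They are a description, since the highest of so many is picked, and the arrays share scale and quality. Vegfa was closest to Frmd5 (0.79), Nkiras2 (0.67) and Dnajb5 (0.65), and Vegfb to Hdac5 (0.81), Msrb2 (0.77) and Mkks (0.76). Vegfc was closest to Mat2b (0.63) and Kdr to Tex2 (0.66). Angpt1 was closest to Rabgap1l (0.79), Epha4 (0.70) and Pcp4l1 (0.70), and Tek to Ttc33 (0.79), Serpinb9 (0.75) and Wwtr1 (0.68). The nearest genes of the others were Bsdc1 for Flt1 (0.68), Npr2 for Flt4 (0.65), Mvp for Angpt2 (0.58) and Pygm for Tie1 (0.75).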

How the data were processed

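Total RNA of each heart was labelled with biotin from 3 µg with an oligo-dT primer and hybridized to 1 Affymetrix array, per the labels' protocols. The authors deposited 1 log2 value for each probe set and array (2.12 to 14.77), made with RMA (background correction, quantile normalization and summary per probe set), per the submitters' processing notes. The sources used here give neither its version and settings nor scan dates or batches. Of 22690 probe sets 64 were controls, 20380 had 1 annotated gene, 691 several and 1555 none. Of those with 1 gene 20351 matched RefSeq. The probe set with the highest mean stood for its gene, and of 12393 genes the 25% with the lowest means (under 4.90) were not tested. Groups came from the titles. limma 3.58.1 (R 4.3.3) fitted 1 mean per group to the 45 arrays (moderated by eBayes, 42.6 residual degrees of freedom with the prior, two-sided), with Benjamini-Hochberg adjustment within each of 11 comparisons and a threshold of 0.05. Correlations used 100000 permutations. Tables and figures used Python 3.11.15, pandas 2.3.3, scipy 1.17.1 and matplotlib 3.10.9. Tested on simulated data for DIO-SC against RW-SC, the fit on 9295 genes recovered 98.5% of 200 genes changed 1.5-fold, and 3.9% of the genes called had not been changed. The called group differences of the ligand and receptor genes were all smaller than 1.5-fold. In log2 they ran from -0.56 (Angpt1, RW-SS against RW-SC) to 0.55 (Vegfc, DIO-SS against DIO-SC). Smaller changes were not simulated, so these rates do not apply to those calls or to differences that did not pass.

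Alternatives were no filter or a filter on the lowest 50%, probe sets averaged by gene or each tested, trend and robust eBayes, array weights, a model of the compared groups alone, quantile normalization once more, 2 replicate blocks, arrays low in atrial transcripts left out or the atrial mean in the model, and each array left out in turn. Leaving out RW-MS 7 and RW-SS 7 together was added after seeing the data. The members and lists were chosen with earlier results of these data known. Named are all 10 genes with their probe sets, up to 4 genes of each list with the smallest adjusted p among those past the threshold in a comparison, the 3 genes most like each member, and any list gene for its level.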

Additional observations from a re-analysis of the deposited data

Results flagged for a closer look

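In 8 of 60 sets of 1 gene in 1 group, 1 array stood farther from the rest than Dixon's criterion allows, and chance gives about 1 in 20. RW-MS 7 was the low array in 3 of them, at 9.68 for Vegfb, 8.92 for Flt1 and 8.25 for Tek. RW-SS 2 was low for Vegfa (7.72). DIO-SS 3 was high for Angpt1 (6.46) and low for Angpt2 (5.62). DIO-MS 5 was high for Angpt2 (6.01), and DIO-SS 5 was high for Tek (8.78). Their part in the group differences was read from the fits without each array: without RW-SS 2 the sidestream interaction of Vegfa passed (-0.30, adjusted p = 0.00859), and without RW-MS 7 Flt1 passed in RW-MS against RW-SC (0.11, adjusted p = 0.0404). Without DIO-SS 3 Angpt2 passed in DIO-SS against DIO-MS (0.21, adjusted p = 0.047). Without DIO-SS 5 Tek no longer passed in DIO-SS against RW-SS (0.10, adjusted p = 0.0595).

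The effect of sidestream smoke differed between DIO and RW mice by the interaction test for Vegfc (0.76), Kdr (0.42), Vegfb (0.21) and Tek (0.17). After the further quantile normalization those of Vegfb (0.12, adjusted p = 0.276) and Tek (0.08, adjusted p = 0.317) no longer passed, and that of Vegfa newly passed (-0.34, adjusted p = 0.0163). The interaction of Vegfb also ended without any 1 of 7 arrays. For Kdr the effects passed in both diets with opposite signs, for Vegfb they passed in both with the same sign, and for Vegfc and Tek only the effect in DIO mice passed.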

How the results depend on the processing

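Of 110 differences of the 10 genes under 13 settings other than single arrays, 1341 values kept their call, 21 no longer passed, 22 newly passed and 2 called ones turned sign. A kept call means past the threshold in the same direction, or past it in neither fit. Signs were not compared where neither fit passed. Most kept values are of that kind, since most of the 110 differences did not pass in the main fit. Only called differences could stop passing or be counted as turned, so the totals do not measure how stable the calls are. Without single arrays, 1906 kept their call, 40 no longer passed, 14 newly passed and 0 called ones turned sign. The 2 that turned were Flt1 with the mean of its probe sets, at -0.06 in DIO-MS and -0.10 in DIO-SS against DIO-SC. Without the lowest 50% of genes 6 of the 10 were tested, and by the construction of that filter fewer passed: 0 in RW-MS against RW-SC, 2 in RW-SS against RW-SC, 4 in DIO-SS against DIO-SC, 1 in DIO-SC against RW-SC, 3 in DIO-SS against RW-SS, 1 in RW-SS against RW-MS and 0 in DIO-SS against DIO-MS. With the mean of all probe sets 0 passed in RW-MS and 0 in DIO-MS against air. With array weights 2 passed in RW-MS against RW-SC, 1 in DIO-MS against RW-MS (Vegfc) and 4 in DIO-SS against DIO-MS (Vegfc, Kdr, Angpt1 and Tek). With only the groups compared 0 passed in DIO-MS against DIO-SC and 0 in RW-SS against RW-MS. With the atrial mean 1 passed in DIO-MS against RW-MS (Vegfa) and 1 in RW-SS against RW-MS (Angpt1). After the quantile normalization 0 passed in DIO-SS against DIO-MS. Without RW-MS 7 and RW-SS 7, an alternative chosen after seeing the data, 2 passed in RW-MS against RW-SC. Without single arrays the count ran from 1 to 2 in RW-MS (2 without RW-MS 7) and from 0 to 2 in DIO-SS against DIO-MS (0 without any of DIO-MS 1 to 4 or DIO-SS 4, 5, 6 or 8, and 2 without DIO-SS 3). The cause was not tested in any of these but the filter. Counts of all genes moved by over 1.5 times in RW-MS against RW-SC (638, against 380 without the 3 arrays low in atrial transcripts and 402 with only the groups compared), DIO-MS against DIO-SC (423, against 714 with weights and 725 without RW-MS 7 and RW-SS 7, and 221, 249 and 248 without DIO-MS 5, DIO-SC 5 or DIO-MS 6), DIO-MS against RW-MS (984, against 1564 and 456 with weights and with only the groups), RW-SS against RW-MS (541, against 4 with only the groups and 292 without RW-MS 2), DIO-SS against DIO-MS (237, against 1964 with weights, 648 without RW-MS 7 and RW-SS 7, 100 after normalization and 27 to 827 without single arrays), the mainstream interaction (21, against 48 with weights and 34 with the atrial mean, and 32, 33 and 35 without DIO-SC 8, RW-MS 1 or DIO-MS 1) and the sidestream interaction (2641, against 1587 after normalization). Arrays with the same replicate number did not deviate together (mean r = 0.00 for the title and -0.02 for the description, range -0.56 to 0.47 over 106 pairs). With the replicate block of the description 0 genes passed in DIO-SS against DIO-MS (90 of all genes), and Flt1 in DIO-SS against DIO-SC no longer passed with either replicate block (0.10, adjusted p = 0.0574 and 0.0514). Signals of the dimmer members Vegfc, Angpt2, Flt4 and Angpt1 lay near the middle of all probe sets (42.6 to 52.7 percentile of the mean).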
